A study of Sus scrofa with 70 samples.

Results

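Among the full-length isoforms read by PacBio Iso-seq in 5 reproductive glands of boars, 4119 were placed by SQANTI3 in its intergenic category, and 1480 of these were marked as coding, with a predicted open reading frame. These 1480 coding intergenic isoforms are 1.33% of the 110,996 isoforms of the series, and they were taken from the deposited isoform table by its category and its coding call. The 2639 intergenic isoforms for which no coding sequence was predicted served as the comparison. Testis and epididymis and the vesicular, prostate and bulbourethral glands were taken from boars of 12 months of the Banna mini-pig inbred line (BMI) and of Diannan small-ear pigs (DSE), the outbred stock from which BMI was bred by full-sibling or parent-offspring mating. No animal was treated or genetically modified. Each breed and gland had 1 Iso-seq library and 3 RNA-seq libraries, so that 10 Iso-seq and 30 RNA-seq libraries enter the values below. The labels do not say which libraries came from the same boar, so p-values measure the spread between libraries.

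An isoform is one spliced form of a transcript, and its open reading frame (ORF) is the stretch that could be translated into protein. Such predictions are made from sequence, so a call says that a protein could be made and not that it is made. Testis is known for transcribing more of the genome than most tissues. In long-read libraries primed with oligo-dT, a run of A in the genome just after the 3′ end of an isoform marks a place where the primer could have bound inside a longer RNA.

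The sequences of 8 of the isoforms that carry the results are shown first. They were read from the RefSeq copy of the Sscrofa11.1 assembly through the deposited exons. For all 1480 isoforms the coding sequence read this way gave the deposited ORF when translated. Each line begins at the first base of the spliced coding sequence, and capitals mark an ATG start codon at its beginning and, where the whole sequence is shown, its stop codon. Exon boundaries are not marked. The first 3 stand for isoforms whose ORF was also found in a RefSeq pig protein (SPEN, PEX13 and TEX15, 60 bases each).
PB.16255.2: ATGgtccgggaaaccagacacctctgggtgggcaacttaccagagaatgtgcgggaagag
PB.12321.4: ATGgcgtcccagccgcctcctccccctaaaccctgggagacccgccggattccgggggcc
PB.7218.10: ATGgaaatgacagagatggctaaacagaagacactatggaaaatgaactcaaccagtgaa
The next line belongs to the epididymal isoform of LOC110255899, of which the first 300 bases of the coding sequence are shown.
PB.3567.98: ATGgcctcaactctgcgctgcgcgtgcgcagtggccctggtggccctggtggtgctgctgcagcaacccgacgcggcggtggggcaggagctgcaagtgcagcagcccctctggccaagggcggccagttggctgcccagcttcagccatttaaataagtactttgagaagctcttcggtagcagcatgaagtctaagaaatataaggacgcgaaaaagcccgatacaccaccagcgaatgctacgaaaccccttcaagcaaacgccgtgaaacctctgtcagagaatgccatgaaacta
The last lines belong to 4 testis isoforms with neither a RefSeq gene on their exons nor a protein match. PB.7861.1 is shown whole with 270 bases, and the other 3 by their first 300 bases. PB.6935.1 and PB.20556.2 begin without an ATG, and so their ORFs are open at the start.
PB.1128.2: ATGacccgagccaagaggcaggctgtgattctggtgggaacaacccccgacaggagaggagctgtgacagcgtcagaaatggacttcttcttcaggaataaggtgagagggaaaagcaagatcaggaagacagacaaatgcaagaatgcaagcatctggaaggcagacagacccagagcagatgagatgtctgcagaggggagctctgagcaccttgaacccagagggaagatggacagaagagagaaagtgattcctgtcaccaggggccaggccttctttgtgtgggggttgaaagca
PB.7861.1: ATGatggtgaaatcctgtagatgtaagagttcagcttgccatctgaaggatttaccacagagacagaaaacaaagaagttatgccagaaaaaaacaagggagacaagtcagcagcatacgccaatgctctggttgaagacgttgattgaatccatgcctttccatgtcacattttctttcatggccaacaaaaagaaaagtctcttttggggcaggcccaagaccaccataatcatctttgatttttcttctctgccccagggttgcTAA
PB.6935.1: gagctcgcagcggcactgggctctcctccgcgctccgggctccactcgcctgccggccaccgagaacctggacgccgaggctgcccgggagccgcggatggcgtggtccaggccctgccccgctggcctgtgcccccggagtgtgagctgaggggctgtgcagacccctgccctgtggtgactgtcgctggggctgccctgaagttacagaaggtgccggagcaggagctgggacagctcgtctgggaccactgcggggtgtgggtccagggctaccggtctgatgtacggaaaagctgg
PB.20556.2: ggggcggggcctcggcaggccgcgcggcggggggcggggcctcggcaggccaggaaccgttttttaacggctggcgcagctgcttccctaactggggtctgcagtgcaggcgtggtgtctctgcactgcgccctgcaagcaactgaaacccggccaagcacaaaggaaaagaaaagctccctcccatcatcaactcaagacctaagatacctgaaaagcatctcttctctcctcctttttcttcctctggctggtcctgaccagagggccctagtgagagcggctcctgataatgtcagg

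The 1480 isoforms fell into 889 loci of overlapping long reads, of which 645 held 1 of them and the largest held 24. In 496 of the 889 loci (55.8%), the same locus also held isoforms of other SQANTI3 categories. Chromosome 6 carried more of them (161) than any other chromosome, followed by chromosome 1 (102) and chromosome 14 (100). A further 114 (7.70%) lay on 35 scaffolds that the assembly does not place on a chromosome, against 48 (1.82%) of the isoforms without a coding sequence.

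The label intergenic held only in part. In the deposited Ensembl annotation, 480 of the 1480 (32.4%, Wilson 95% interval 30.1% to 34.9%) overlapped the span of a gene on the same strand, in part or in full. Exon bases were shared with such a gene by 15. Most of the 480 thus overlapped a gene without sharing its exons, and how many lay wholly inside an intron was not counted. Of the isoforms without a coding sequence, 1531 (58.0%, 56.1% to 59.9%) overlapped a gene in this way. Of the coding isoforms outside genes, 947 had a gene of the same strand on their chromosome or scaffold, at a median distance of 25,274 bases (quartiles 7521 and 61,532), and 273 of them (28.8%) were within 10,000 bases of it. The intervals given for shares cover counting error only, since isoforms of one locus share their sequence and amplified reads are not independent molecules.

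Against the RefSeq annotation of the same assembly, 668 of the 1480 (45.1%) shared exon bases with a gene on the same strand. The gene was protein-coding for 451, which came from 207 genes, a long non-coding RNA (lncRNA) for 181 and of another kind for 36, among them 31 on pseudogenes. At least 1 splice junction was shared with the RefSeq gene by 469 (31.7%), against 396 (15.0%) of the isoforms without a coding sequence. Exons of a RefSeq gene on the opposite strand were overlapped by 158, and 76 of these had no gene on their own strand. The RNA-seq kit is not stated to mark the strand, so that RNA-seq reads of these isoforms and of their antisense partners cannot be told apart. Neither a RefSeq exon nor any RefSeq protein hit was found for 692 isoforms (46.8%) in 516 loci.

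The ORFs were short. Their median length was 123 amino acids (quartiles 106 and 177), from 1 to 2045. From 100 to under 200 amino acids were reached by 994 isoforms (67.2%), at least 300 by 222 (15.0%) and at least 1000 by 29, while 165 were under 100 and 34 under 30. The ORF began with methionine in 1368 isoforms (92.4%) and ended without a stop codon in 67. Nonsense-mediated decay, the removal of messages with an early stop codon, was predicted by SQANTI3 for 453 (30.6%).

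A RefSeq pig protein matched the ORF of 276 isoforms (18.6%, 16.7% to 20.7%) at 90% identity or more over 80% or more of the ORF. They came from 102 loci and matched proteins of 97 genes, and 249 of the 276 overlapped exons of the very gene they matched. Of the ORFs of at least 300 amino acids, 71.6% had a match, and of those under 200, 6.99%. Most matched ORFs were fragments of the RefSeq protein: 148 of 276 (53.6%) covered under 50% of it and 79 (28.6%) at least 80%. RefSeq marks the protein as LOW QUALITY PROTEIN for 29 of the 97 genes, a mark that it gives to models with corrected frames or stops. Matched isoforms had a median of 6 exons and 354 amino acids, and the other 1204 a median of 2 exons and 116 amino acids. All splice sites were canonical in 87.3% of the matched and 66.7% of the other isoforms, and reverse transcriptase template switching (RTS), a copying error of the library, was marked in 4.35% and 18.0%.

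**Figure D1:**
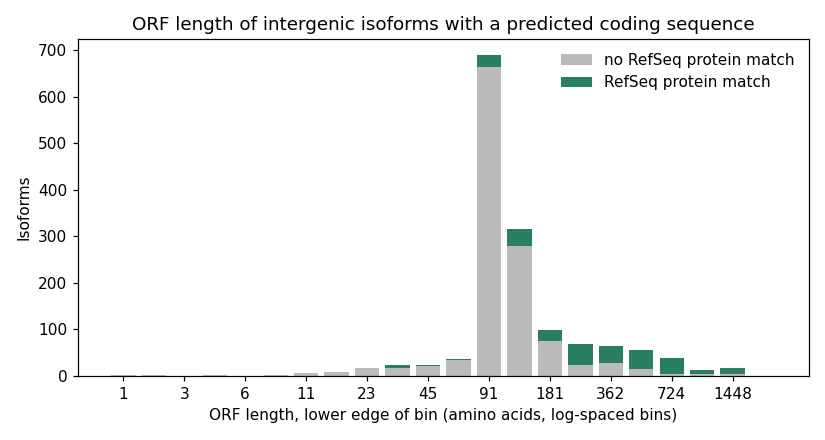
Number of coding intergenic isoforms (vertical axis) by ORF length in amino acids (horizontal axis, bins equally spaced on a log scale), with isoforms matching a RefSeq pig protein in green stacked on the others in grey. The bin from 91 to 127 amino acids holds 690 isoforms, 26 of them matched, and from 256 amino acids upward most isoforms are matched.

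The 5 longest ORFs lay at large genes or at none, and 4 of the 5 lay outside every Ensembl gene of their strand. PB.16255.1 (chromosome 6, 75001126 to 75100146, plus strand) carried 2045 amino acids in 11 exons and shared 9 of its 10 junctions with RefSeq SPEN, a corepressor that acts in X-chromosome silencing. PB.3243.4 on chromosome 11 carried 1608 amino acids, of which 87.7% matched CCDC168. PB.17467.59 overlapped Ensembl DST, the gene of the cytoskeletal linker dystonin, and its 1524 amino acids had no match by the rule. PB.15640.86 on chromosome 6 carried 1468 amino acids, over which WDR87 was 48.7% identical, and it lay on no RefSeq gene. PB.7528.1 on chromosome 15 carried 1372 amino acids identical to a part of TTN, titin of the sarcomere, and covered 3.99% of that protein.

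Further matched ORFs of 870 to 1295 amino acids, from the rule that takes the 10 longest, belonged to TTN again (PB.7531.29), TSC22D1, a leucine-zipper protein (PB.3043.7), a FSIP2-like gene (PB.21619.1), LRP1, an endocytic receptor (PB.14448.1), PCNT of the centrosome (PB.20629.4), SYNE1 of the nuclear envelope (PB.125.8) and TEX15 (PB.7218.10), which is needed for male meiosis. Of these only the ORF of PB.3043.7 covered most of its protein (90.7%). The others covered between 3.58% and 31.1%. PB.7218.10 (chromosome 15, 54211216 to 54262228) had 80 full-length reads, 44 in DSE testis and 36 in BMI testis. PB.21619.1 had 7, all in BMI testis.

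Full-length reads on the coding isoforms numbered 11,657 of 3,468,110 (0.336%, Wilson 95% interval 0.330% to 0.342%). Within each breed testis gave the highest share, 0.579% in DSE (2650 of 457,778 reads) and 0.520% in BMI (2368 of 455,023). The share in epididymis was 0.546% in DSE (1263 of 231,413) and 0.307% in BMI (1406 of 458,697). In the accessory glands the share lay between 0.158% in BMI bulbourethral gland and 0.296% in DSE bulbourethral gland. The locus PB.3567 gave 415 of the DSE and 234 of the BMI epididymis reads, and without it these shares were 0.366% and 0.256%. With 1 library for each breed and gland, these shares have no replicate check.

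**Figure D2:**
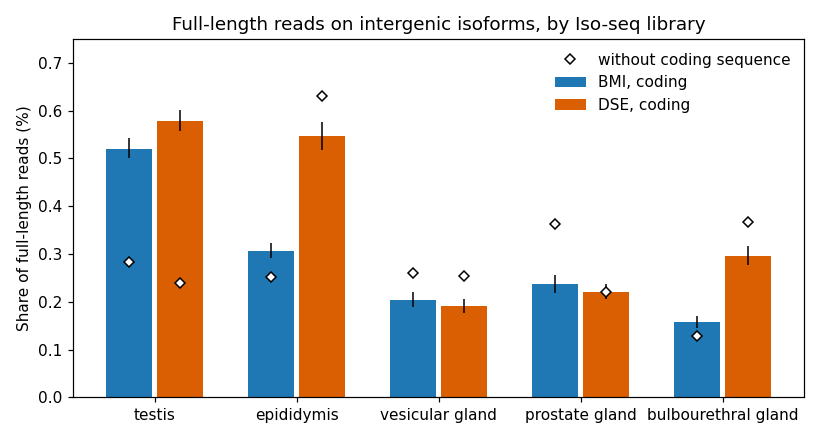
Percent of all full-length reads that lie on coding intergenic isoforms in each of the 10 Iso-seq libraries (bars, blue BMI and orange DSE, with Wilson 95% intervals), with the percent on intergenic isoforms without a coding sequence as white diamonds. In both testis libraries the coding share (0.520% and 0.579%) lies above the other (0.283% and 0.240%), while in 5 libraries it lies below: DSE epididymis (0.546% against 0.631%), both vesicular gland libraries, DSE bulbourethral gland and BMI prostate gland.

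Reads were unevenly spread over the isoforms. Exactly 2 reads, the lowest total among them, were held by 829 isoforms (56.0%), at least 10 by 170 and at least 100 by 11, and the 10 isoforms with most reads took 28.5% of all. One library alone held 615 isoforms (41.6%), and all 10 libraries shared 16. Testis libraries alone held 435, epididymis 232, bulbourethral gland 119 and vesicular and prostate gland 73 each.

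The isoforms with most reads, with 1 taken per locus, were of different kinds. PB.3567.98 (chromosome 12, 19220569 to 19223671, minus strand) had 643 reads, 412 in DSE and 231 in BMI epididymis and none elsewhere, and its 116 amino acids matched the uncharacterized LOC110255899. PB.1128.2 (chromosome 1, 145752227 to 145758903, minus strand) had 481, of which 312 were from DSE testis and 168 from BMI testis, and its 103 amino acids had no protein hit. PB.12321.4 (chromosome 3, 80757325 to 80791517, minus strand) had 444, from 7 to 73 in every library, and encoded all 403 amino acids of PEX13, a peroxisomal import protein. It overlapped the span of an Ensembl gene of its strand that has no symbol. PB.8232.5 on chromosome 16 had 383, from 2 to 90 in every library, with an ORF of 346 amino acids, of which 92.2% matched CARD6, a protein with a caspase recruitment domain. PB.16255.2 had 324, from 15 to 47 in every library, with 2020 amino acids identical to a part of SPEN.

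The coding sequence of PB.16255.2 ended without a stop codon 2 bases before the end of the isoform at position 75100146 of chromosome 6, and 13 of the 20 genomic bases that follow are A. The 20 bases after the 3′ end are given for this isoform, for CCDC168 and for 2 isoforms with fewer A, with A in capitals.
PB.16255.2: AAAtgtgAAAgAAAAtAAcA
PB.3243.4: AAAAgAAAgAAAAtcAcAtt
PB.12321.4: tActgttcttgAtgttgtgc
PB.7861.1: AcAAAtggtgtttttgtttA
At least 60% A in these 20 bases was found for 43 of the 67 isoforms without a stop codon (64.2%, 52.2% to 74.6%) and for 664 of the 1413 with one (47.0%, 44.4% to 49.6%).

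Coding intergenic isoforms differed from intergenic isoforms without a coding sequence in 6 features compared within each of the 10 Iso-seq libraries. All splice sites were canonical in a mean of 74.0% ± 7.59 (SD, n = 10 libraries) of the coding and 54.9% ± 14.1 of the other isoforms, a difference of 19.0 percentage points ± 7.80 that was positive in 10 of 10 libraries (exact sign-flip permutation test, two-sided p = 0.00195, Benjamini-Hochberg adjusted over the 6 features 0.00234). RTS was marked in 14.6% ± 4.03 against 24.03% ± 8.39, and an A-rich end (at least 60% A in the 20 bases after it) in 50.9% ± 15.1 against 64.1% ± 17.2, both lower in 10 of 10 libraries. A polyA motif near the 3′ end was found in 56.8% ± 11.49 against 49.3% ± 12.5. The mean of the library medians was 2953 ± 318 bases against 2405 ± 301 and 2.95 ± 0.497 exons against 2. The adjusted p was 0.00234 for each of these except the exons, where it was 0.00391 with 9 of 10 libraries higher (exact sign-flip permutation, n = 10). With 10 libraries, p = 0.00195 is the smallest that this exact test can give.

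The classes were split by the coding call, and a longer isoform has more room for an ORF. The differences in length and exons are thus not independent of that split and are a description. The libraries share isoforms, so they are not independent. Among isoforms read in 1 library alone, the difference in length held (382 bases, exact sign-flip permutation, adjusted p = 0.0234, higher in 9 of 10 libraries) and the other 5 did not pass (adjusted p from 0.0762 for the A-rich end to 0.367 for RTS). The place in the genome moved with these features too. Of the coding isoforms that overlapped an Ensembl gene of their strand, 42.1% were canonical throughout, 31.3% were marked for RTS and 70.8% had an A-rich end. Outside genes these shares were 84.2%, 7.90% and 36.7%. When both classes were limited to isoforms outside genes, the difference in canonical isoforms was 7.09 percentage points and that in A-rich ends −5.36 (exact sign-flip permutation, adjusted p = 0.0117 and 0.0422), and the polyA motif no longer passed (adjusted p = 0.0645).

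**Figure D3:**
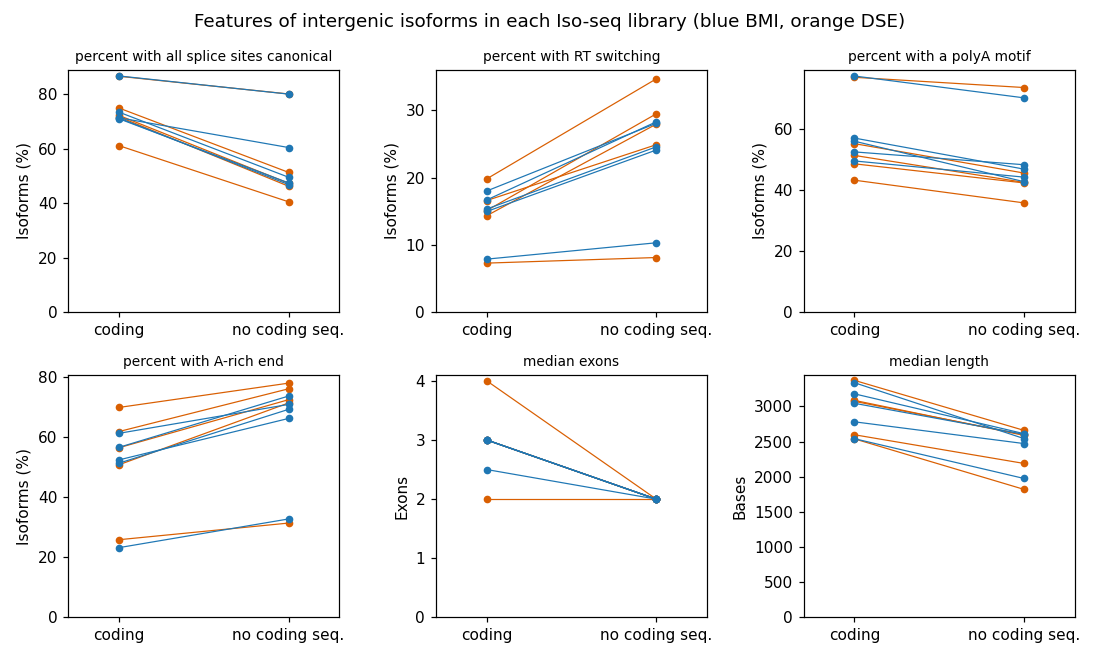
The 6 features of intergenic isoforms with a coding sequence (left of each panel) and without one (right), with a line for each of the 10 Iso-seq libraries (blue BMI, orange DSE) and percent of isoforms, median exons or median bases on the vertical axis. Canonical splice sites, polyA motifs and length are lower on the right in 10 of 10 lines, and RTS and A-rich ends higher in 10 of 10. The 2 lines that lie apart in the 4 percent panels are the testis libraries.

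RNA-seq abundance was deposited as TPM, the estimated share of a transcript among all transcripts of a library, corrected for transcript length. A value was given for 1435 of the 1480 isoforms, and the other 45 are not in that table. The filter of 1 TPM or more in 3 or more of the 30 libraries was passed by 621 (42.0%), against 693 (26.3%) of the isoforms without a coding sequence. The coding isoforms summed to between 6733 and 12,843 TPM in the 6 testis libraries, and to between 1099 and 38,489 TPM in the 6 epididymis libraries. DSE epididymis replicate 1 gave the 38,489 TPM and BMI epididymis replicate 2 gave 3642 TPM. When the locus PB.3567 is left out, the sum was 1098 to 2433 TPM in epididymis and 322 to 711 TPM in the accessory glands. Of the 621, the mean was highest in testis for 391 (63.0%) and in epididymis for 128, while bulbourethral gland led for 41, prostate gland for 33 and vesicular gland for 28. All transcripts were not counted in this way, and the filter can be passed through 1 gland alone. These counts therefore describe only the isoforms that passed. In tissue samples, fewer cells of a type and less RNA per cell cannot be told apart.

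The tissue labels were checked with marker genes. The summed TPM of 4 spermatid markers (PRM1, TNP1, ACR, ODF1) was 23,125 to 100,662 in testis and at most 929 elsewhere, in BMI epididymis replicate 2. The 3 Leydig cell markers (INSL3, STAR, CYP17A1) reached 17,754 to 61,438 in testis and at most 3.72 elsewhere. DSE testis replicate 2 stood apart, with the 23,125 TPM of spermatid markers, against 66,344 or more in the other 5 testis libraries, and the 61,438 TPM of Leydig cell markers. Without it, 350 of 614 isoforms were called higher in testis (57.0%, with 29.3% of all transcripts) in place of 338, and 9 of 417 between the breeds in testis (2.16%, with 0.68% of all) in place of 7, by the tests described next. CRISP1, ADAM7 and CST11, the 3 of 4 epididymis markers found by symbol, reached 1569 to 10,614 in epididymis and at most 12.3 elsewhere. The epithelial markers EPCAM, KRT8 and KRT18 summed to 452 or more outside testis and to at most 36.6 in it. ACTA1 and CKM, 2 of 3 muscle markers, summed to 455 TPM in BMI epididymis replicate 1 and to 877 TPM in DSE bulbourethral gland replicate 3, while the lowest bulbourethral library was listed at 0.

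Testis was the gland in which most coding intergenic isoforms were higher. Each gland was compared with the mean of the other 4 by limma on log2(TPM + 1), and an isoform was called where the p adjusted by Benjamini-Hochberg lay below 0.05 and the log2 difference reached 1. In testis 338 of 621 (54.4%) in 232 loci were called higher, beside 384 of 693 (55.4%) of the isoforms without a coding sequence and 28.4% of all 64,661 transcripts tested. The median log2 difference of the 621 was 1.19, and of all transcripts 0.06. An isoform high in 1 gland can pass the filter through that gland alone, so these counts describe the isoforms that passed. In 272 (43.8%) the lowest testis library lay above every library of the other glands, beside 16.1% of all transcripts. With no filter 344 of 1435 (23.97%) were called, beside 13.7% of all transcripts. With a protein match 92 of 162 (56.8%) were called, and without one 246 of 459 (53.6%).

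In each of the other glands fewer isoforms were called higher. In epididymis 57 (9.18%) were called higher, with 9.65% of all transcripts. In vesicular gland they were 12 (1.93%), with 2.49% of all, in prostate gland 14 (2.25%), with 2.61% of all, and in bulbourethral gland 19 (3.06%), with 6.37% of all. With size factors the calls were 34 of 612 in epididymis (5.56%, with 5.42% of all) and 27 in vesicular gland (4.41%, with 5.41% of all). A pseudocount of 0.1 gave 104 calls for epididymis (16.7%, with 15.6% of all) and 29 for vesicular gland (4.67%, with 4.33% of all). With that pseudocount 30 were called for prostate gland (4.83%, with 5.32% of all) and 39 for bulbourethral gland (6.28%, with 10.8% of all). Testis is among the glands that each of these 4 was compared with, so an isoform high in testis alone lies below that mean in the others. The lower calls among the 621 were 65 for epididymis (10.47%, with 4.4% of all transcripts), 95 for vesicular gland (15.3%, with 13.4%), 85 for prostate gland (13.7%, with 6.57%) and 88 for bulbourethral gland (14.2%, with 6.48%). Of these, 60, 84, 81 and 80 in the same order were isoforms called higher in testis, so that the lower calls mostly restate the testis result. In testis 26 were called lower (4.19%, with 9.54%).

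The 3 isoforms with the largest testis difference and no overlap, with 1 taken per locus, were short and lacked a RefSeq gene. PB.20556.2 (scaffold AEMK02000220.1, 15364 to 17846, plus strand, 995 bases, 4 exons, ORF of 129 amino acids) was at 1198, 1565 and 1664 TPM in BMI testis and at 3105, 971 and 3416 TPM in DSE testis. All 24 other libraries were at or below 11.06 TPM, and the highest of them were epididymis libraries. Its log2 difference on the log2(TPM + 1) scale was 10.23 (SE 0.43, limma adjusted p = 1.71e-16). It had 5 long reads, all from testis, and 1 or more of its splice sites was non-canonical.

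PB.6935.1 (chromosome 14, 141206638 to 141207473, minus strand, 399 bases, 2 exons) was at 719, 636 and 908 TPM in BMI testis and at 1434, 2655 and 1518 TPM in DSE testis. No other library exceeded 5.52 TPM, in BMI epididymis replicate 2, and so the groups did not overlap. The log2 difference was 10.01 (SE 0.25, limma adjusted p = 1.71e-20). It overlaps the span of Ensembl gene ENSSSCG00000018728 and is marked for RTS.

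PB.7861.1 (chromosome 15, 119050336 to 119051175, plus strand, 385 bases, 2 exons) was at 663, 836 and 560 TPM in BMI testis and at 1065, 160 and 621 TPM in DSE testis. The highest other value was 8.14 TPM, in BMI epididymis replicate 2, the epididymis library with the highest sum of spermatid markers (929 TPM). Their part in the values outside testis was not tested. The log2 difference was 8.92 (SE 0.35, limma adjusted p = 5.99e-17). All its splice sites are canonical, and 37.04% of its coding bases are soft-masked as repeats.

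Isoforms named for their reads or their ORF were also testis-rich in part. PB.1128.2 had a median of 49.7 TPM in testis (12.7 to 77.8) and at most 0.466 TPM elsewhere (log2 difference 5.47, SE 0.20, limma adjusted p = 1.09e-17). PB.7218.10 of TEX15 had a median of 2.40 TPM in testis (0.843 to 7.88) and was listed at 0 in the 24 other libraries. PB.16255.2 of SPEN lay between 3.84 and 9.53 TPM in testis and between 0 and 5.14 TPM elsewhere, so that the groups overlapped (log2 difference 1.26, SE 0.37, limma adjusted p = 0.00506). PB.17467.59 at the DST locus was lower in testis (0.155 to 0.731 TPM) than in every other library (0.960 to 17.5 TPM), and PB.8232.5 of CARD6 had a testis median of 0.744 TPM against 7.43 TPM elsewhere. PB.12321.4 of PEX13 ranged from 2.09 to 15.0 TPM over the 30 libraries, lowest in vesicular gland and highest in bulbourethral gland by the median.

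In epididymis 20 of the 621 isoforms (3.22%) were called higher without overlap, beside 1.39% of all transcripts. PB.5806.1 on chromosome 14 had the largest difference among isoforms without overlap. It encodes all 119 amino acids of LRCOL1, a leucine-rich colipase-like protein. Its level was 280, 315 and 1379 TPM in BMI epididymis and 204, 81.4 and 206 TPM in DSE epididymis, and at most 0.852 TPM in any other library. The log2 difference was 8.02 (SE 0.23, limma adjusted p = 4.67e-18). Only 2 long reads were counted on it, both from DSE epididymis.

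PB.7914.1 (chromosome 15, 121496085 to 121502156) carried an ORF of 610 amino acids, of which 83.1% matched SPEG, a kinase of striated muscle. It was at 21.1, 5.50 and 5.8 TPM in BMI and at 11.3, 32.2 and 12.8 TPM in DSE epididymis, with at most 3.87 TPM elsewhere (log2 difference 2.55, SE 0.24, limma adjusted p = 1.42e-08). In the same order, the summed muscle markers ACTA1 and CKM were at 455, 3.61 and 4.28 TPM in BMI and at 2.43, 98.6 and 28.3 TPM in DSE epididymis. DSE bulbourethral gland replicate 3, with 877 TPM of these markers, had 2.43 TPM of PB.7914.1. Their part in the result was not tested. The isoform is marked for RTS, and its 2 long reads came from BMI bulbourethral gland and none from epididymis. PB.5340.2 on chromosome 13, which shares exon bases with a RefSeq lncRNA, was at 1.86 to 8.64 TPM in epididymis and at most 0.0737 TPM elsewhere (log2 difference 2.41, SE 0.15, limma adjusted p = 1.07e-11), and its coding sequence is soft-masked over its whole length.

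PB.3567.98, the isoform with most long reads, varied widely among the epididymis libraries. It was at 0.477, 769 and 16.0 TPM in BMI and at 21,417, 1.25 and 16.4 TPM in DSE epididymis, against at most 5.95 TPM elsewhere. DSE epididymis replicate 1 thus held more than all other libraries together. This library also had the lowest transcript integrity in the study's own quality measures of the RNA-seq libraries, and the part of RNA quality in the value was not tested. Its log2 difference was 4.47 (SE 1.12, limma adjusted p = 0.00282) although the groups overlapped. CST11, an epididymis marker, varied from 0.482 to 8045 TPM among the same libraries.

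For the accessory glands the isoforms called higher without overlap were 1 for vesicular gland (0.161%, with 0.241% of all transcripts), 1 for prostate gland (0.161%, with 0.11% of all) and 4 for bulbourethral gland (0.644%, with 0.96% of all). PB.13389.39 (chromosome 4, 80677748 to 80685891, minus strand) was at 13.3, 5.10 and 8.65 TPM in BMI and at 5.47, 9.52 and 8.05 TPM in DSE vesicular gland (log2 difference 3.05, SE 0.23, limma adjusted p = 9.24e-10). BMI prostate gland replicate 2 held 4.74 TPM and the 5 other prostate libraries were listed at 0. Its 70 long reads came from the vesicular gland of both breeds (30 and 13) and from BMI prostate gland (27), and 94.4% of its coding bases are soft-masked.

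PB.6526.37, overlapping NCOA4, the gene of the ferritin receptor for autophagy, was at 7.35, 4.09 and 17.1 TPM in BMI and at 9.47, 14.2 and 17.3 TPM in DSE prostate gland, and at most 0.398 TPM elsewhere (log2 difference 3.42, SE 0.16, limma adjusted p = 1.82e-13). It had 2 long reads, 1 from DSE prostate and 1 from DSE epididymis, is marked for RTS and has 17 A in the 20 bases after its end. Its level lies on the sequence of a known gene, and reads of NCOA4 could be split between them.

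In bulbourethral gland, PB.5573.4 and PB.5572.1 lie close together on opposite strands of chromosome 13 (200346841 to 200348919, minus, and 200335894 to 200338634, plus). PB.5573.4 shares exon bases with the RefSeq lncRNA LOC110256484, and PB.5572.1 has a non-canonical splice site. PB.5573.4 was at 1.60 to 3.396 TPM and PB.5572.1 at 0.907 to 2.05 TPM in the 6 libraries, and both were listed at 0 in the 24 others. Their 3′ ends were followed by 17 and 13 A in 20 bases. The log2 differences were 1.76 (SE 0.08, limma adjusted p = 2.89e-14) and 1.17 (SE 0.07, limma adjusted p = 6.36e-12). PB.9261.1 on chromosome 18 was at 2.10 to 6.68 TPM there and at most 1.57 TPM elsewhere (log2 difference 2.04, SE 0.15, limma adjusted p = 3.18e-10), and it is marked for RTS.

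**Figure D4:**
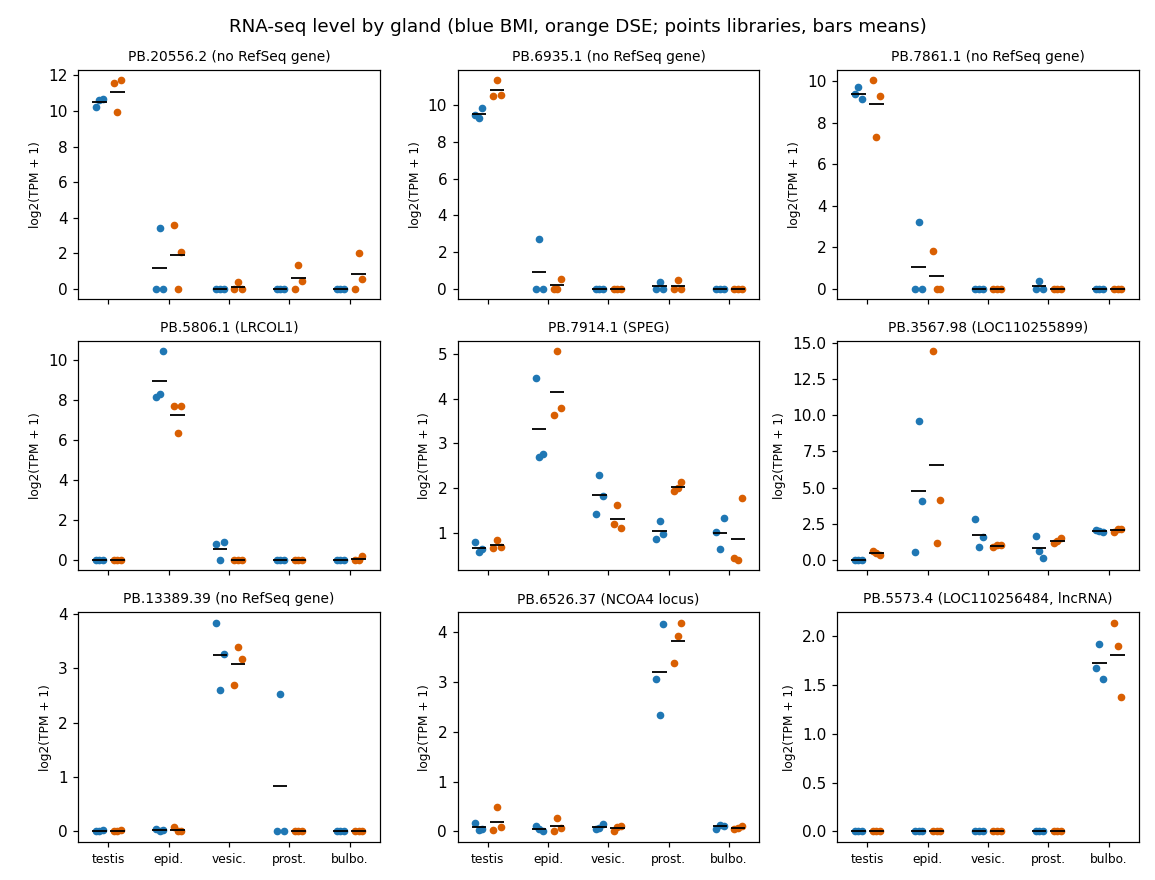
RNA-seq level as log2(TPM + 1) of 9 coding intergenic isoforms by gland, with 1 point for each library (3 BMI in blue, 3 DSE in orange) and bars at the group means. The upper row is high in testis alone, PB.5806.1 and PB.7914.1 in epididymis, and the lower row in vesicular, prostate and bulbourethral gland, with 1 BMI prostate library at 4.74 TPM of PB.13389.39. PB.3567.98 spreads from 0.477 to 21,417 TPM over the epididymis libraries.

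The number of coding intergenic isoforms called between the breeds depended on the fit. With each gland fitted on its own, testis gave 7 calls and prostate gland 1. In testis 3 of 432 were higher and 4 lower in DSE than in BMI, with 0.698% of all 38,994 transcripts called in either direction. In prostate gland 1 of 115 was called, with 0.42% of all. In epididymis none of 188 was called by limma, with 0.0% of all, in vesicular gland none of 106, with 0.191% of all, and in bulbourethral gland none of 117, with 0.103% of all. At an unadjusted p below 0.05, limma gave 8 isoforms for epididymis (4.26%, with 3.05% of all transcripts), 14 for vesicular gland (13.2%, with 12.1% of all) and 12 for bulbourethral gland (10.3%, with 6.21% of all). In the mean over all glands 2 of 621 were called, with 0.626% of all. One fit of all 30 libraries, which shares its estimate of the spread among the glands, gave 103 of 621 in testis (16.6%, with 4.97% of all). In the other glands it gave from 2 in bulbourethral gland (0.322%, with 0.435% of all) to 7 in vesicular gland (1.13%, with 0.333% of all) and 7 in epididymis (1.13%, with 0.713% of all). Summed over the locus, 6 of 87 were called in vesicular gland (6.9%, with 1.3% of all sums). A pseudocount of 0.1 gave 22 of 621 over all glands (3.54%, with 2.07% of all). Without BMI testis replicate 1, 2 or 3, limma called 0 of these isoforms in testis and 2 of all transcripts tested each time. Without DSE testis replicate 1 it called 3 (0.725%, with 0.436% of all), and without replicate 3 also 3 (0.732%, with 0.218% of all). Prostate gland had 0 calls by limma without any 1 of its libraries other than BMI replicate 2, with 0.0% to 0.0668% of all transcripts. An isoform at 0 in one breed needs all 3 libraries of the other to pass the filter on low values.

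PB.20662.4 was higher in every DSE library than in every BMI library. It lies on scaffold AEMK02000387.1 (20240 to 25559, minus strand), has 2 exons, an ORF of 104 amino acids and 7 long reads, all from DSE. In prostate gland it was listed at 0, 0.0798 and 0.329 TPM in BMI and at 12.2, 6.64 and 5.34 TPM in DSE. Over the 5 glands the highest BMI value was 0.841 TPM and the lowest DSE value 1.89 TPM. The log2 difference was 2.58 over all glands (SE 0.16, limma adjusted p = 9.64e-11) and 2.93 in prostate gland (SE 0.35, limma adjusted p = 0.0339). The call over all glands was kept under every alternative run (highest adjusted p from limma 4.96e-07). That in prostate gland was lost in 6 of the 8 alternatives in which it was tested (highest adjusted p from limma 0.258). Without any 1 DSE prostate library the isoform fell below the filter there and was not tested. Of its 4731 bases, 855 overlap exons of LOC110258712 on the opposite strand.

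PB.20472.7 on chromosome 9 (131891107 to 131903436) was lower in DSE over all glands, by a log2 difference of −1.06 (SE 0.21, limma adjusted p = 0.00258). In epididymis it was at 6.70, 7.41 and 5.33 TPM in BMI and at 0.860, 2.84 and 4.06 TPM in DSE, while in testis DSE replicate 2 had the highest value of all 6 libraries (3.255 TPM). Of its 33 long reads 29 came from BMI. Without DSE testis replicate 1 or 3, or without DSE epididymis replicate 1, it no longer passed both thresholds. Nor did it pass in the fit with the replicate number added (adjusted p from limma 0.572).

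Of the 3 isoforms called higher in DSE testis, those with the largest differences are given. PB.2748.60 (chromosome 10, 65548839 to 65550517), whose ORF has 9 amino acids, was at 1.82, 0 and 2.07 TPM in BMI and at 15.2, 27.0 and 21.6 TPM in DSE testis (log2 difference 3.405, SE 0.50, limma adjusted p = 0.0383). This call was lost in 9 of 11 alternatives, among them a pseudocount of 0.1 and the omission of any 1 of the 6 libraries (highest adjusted p from limma 0.271). The summed Leydig cell markers also differed between the breeds without overlap, at 20,574, 17,754 and 18,424 TPM in BMI and at 23,153, 61,438 and 31,433 TPM in DSE testis in the same order. The spermatid markers were at 66,344, 84,196 and 70,380 TPM in BMI and at 100,662, 23,125 and 71,288 TPM in DSE testis. The part of these cell types in the breed differences of testis was not tested. PB.11373.1 (chromosome 2, 142892082 to 142894886) was listed at 0 in all 15 BMI libraries and above 0 in all 15 DSE libraries, with 12.7, 3.95 and 11.7 TPM in DSE testis (log2 difference 3.25, SE 0.45, limma adjusted p = 0.0296). This call was lost in 5 of the 8 alternatives in which it was tested, among them the omission of any BMI testis library (highest adjusted p from limma 0.304). Without any 1 DSE testis library the isoform fell below the filter and was not tested. All of its 1864 bases overlap exons of LOC100737316 on the opposite strand.

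Of the 4 called lower in DSE testis, again those with the largest differences are given. PB.14104.66 (chromosome 5, 5338510 to 5373289), with an ORF of 339 amino acids, of which 94.4% matched the EF-hand protein EFCAB6, was at 14.6, 14.4 and 7.55 TPM in BMI testis and listed at 0 in all other 27 libraries (log2 difference −3.67, SE 0.35, limma adjusted p = 0.00845). One of its 2 long reads nevertheless came from DSE testis. Its call was lost in 1 of the 8 alternatives in which it was tested, the fit with the replicate number added (adjusted p from limma 0.0559). Without any 1 BMI testis library the isoform fell below the filter and was not tested. PB.20836.1, on a scaffold and overlapping the RefSeq pseudogene LOC100525325, was at 16.3, 18.4 and 6.66 TPM in BMI and at 0.337, 0.241 and 0 TPM in DSE testis (log2 difference −3.53, SE 0.43, limma adjusted p = 0.0194). The call of PB.20836.1 was lost in 4 of the 8 alternatives in which it was tested, among them the omission of DSE testis replicate 1 or 3 (highest adjusted p from limma 0.0745). Without any 1 BMI testis library this isoform fell below the filter and was not tested. In epididymis it was above 0 in 1 BMI and 2 DSE libraries, at 5.91, 6.18 and 14.8 TPM.

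**Figure D5:**
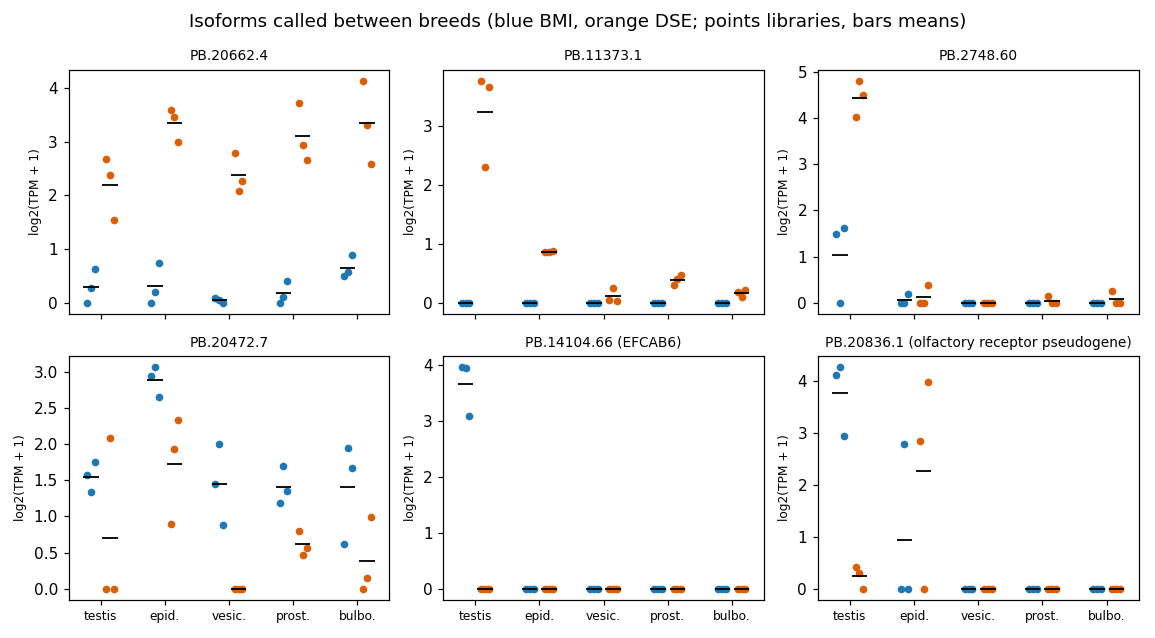
RNA-seq level as log2(TPM + 1) of the 6 isoforms named for a breed difference, by gland, with 1 point for each library (3 BMI in blue, 3 DSE in orange) and bars at the group means. PB.20662.4 separates the breeds in each gland, PB.11373.1 is listed at 0 in all 15 BMI libraries, and PB.14104.66 is above 0 in the 3 BMI testis libraries alone.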

How the data were processed

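Full-length isoforms were made by the authors from merged PacBio reads with IsoSeq3, collapsed with cDNA_Cupcake and classified with SQANTI3 against Sscrofa11.1 and Ensembl. The deposited isoform table gives full-length read counts per Iso-seq library (231,413 to 458,697 reads). RNA-seq abundance was deposited by the authors as TPM from Salmon 1.9.0, per the labels, and TPM carries no read depth. Which predictor set the coding mark is not given in that table. The authors also deposited, as a percent, how much of the 20 bases downstream of an isoform is A. The locus of an isoform is its PB number, since the gene label in the table differs for each of the 1480 isoforms.

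ORFs were compared by blastp 2.17.0 (at least 90% identity over at least 80% of the ORF) with RefSeq pig proteins, taken as the longest coding sequence of each protein-coding gene translated from the genome. The 20 genomic bases after each isoform end equalled the deposited bases for all 4119 intergenic isoforms. Features were compared within 10 libraries by an exact two-sided sign-flip permutation test, adjusted over 6 features by Benjamini-Hochberg. RNA-seq was tested with limma 3.58.1 (R 4.3.3, trend) on log2(TPM + 1), a scale that understates the change of low transcripts, for transcripts at 1 TPM or more in at least 3 libraries of the fit. Gland contrasts and the breed contrast over all glands used 30 libraries, and breed contrasts in a gland 6. Calls needed an adjusted p below 0.05 over all transcripts and a log2 difference of at least 1. The fits were tested on simulated data.

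Named isoforms are the 5 with the longest ORF, the 5 with most long reads, the 10 longest ORFs with a protein match, up to 3 per gland with the largest log2 difference and no overlap, and up to 2 per breed contrast and direction, or all where 5 or fewer were called, with 1 per locus where a rule takes several. The isoforms, lists and tests were chosen with earlier results of these data known. Small RNA files were not used here. One sequence is not reported here.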

Additional observations from a re-analysis of the deposited data

Results flagged for a closer look

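The DSE minus BMI difference varied among the glands, by limma's test of the breed by gland interaction over 30 libraries, for the 4 isoforms named for testis. The adjusted p was 2.25e-06 for PB.2748.60, 1.06e-06 for PB.11373.1, 1.71e-11 for PB.14104.66 and 0.0226 for PB.20836.1. They had been chosen for their testis difference, so these values are a description. The interaction passed an adjusted p of 0.05 for 60 of the 621 isoforms tested (9.66%), beside 1697 of all 64,661 transcripts (2.62%).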

How the results depend on the processing

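The number of isoforms higher in testis stayed within 1.5 times of 338 under every alternative run, from 323 to 350 without 1 library (with 27.6% to 29.3% of all transcripts). With a pseudocount of 0.1 the calls were 104 for epididymis, 29 for vesicular gland, 30 for prostate gland, 39 for bulbourethral gland, 22 for breed over all glands and 0 for breed in prostate gland (with 0.122% of all transcripts). With size factors they were 34 in epididymis, 27 in vesicular gland and 0 for breed in prostate gland (with 0.261%), and the median of all transcripts moved by −0.25 (log2) in epididymis and 0.19 in vesicular gland. With 1 fit of all glands, breed calls among the 621 were 103 for testis, 7 for epididymis (1.13%, with 0.713% of all transcripts) and 7 for vesicular gland (1.13%, with 0.333%), 4 for prostate gland (0.644%, with 0.453%) and 2 for bulbourethral gland (0.322%, with 0.435%). With no filter they were 2 of 1136 in testis (0.176%, with 0.0756%) and 0 of 963 in prostate gland (with 0.0289%), and summed over the locus 10 of 295 in testis (3.39%, with 0.572% of all sums), 6 of 87 in vesicular gland (6.9%, with 1.3%) and 2 of 88 in prostate gland (2.27%, with 0.359%). With the replicate block they were 1 of 432 in testis (0.231%, with 0.103%) and 0 in prostate gland (with 0.0%). PB.20662.4 passed over all glands with the block. The other breed differences of named isoforms, that of PB.20662.4 in prostate gland included, did not, at adjusted p values from limma of 0.0559 (PB.14104.66) to 0.572 (PB.20472.7, log2 difference −0.77). The labels do not say that a number marks a shared animal, and same-numbered libraries had a mean correlation of deviations of 0.0388 in BMI and 0.0444 in DSE, against −0.0192 and −0.0207 for libraries of other numbers. All 3 same-numbered correlations were over 0.1 in 2 of 20 gland pairs within a breed, DSE epididymis with vesicular gland (0.209 to 0.441) and DSE testis with vesicular gland (0.105 to 0.296), and in 0 of 5 glands between breeds. A library correlated best with its own number in 62 of 120 cases, where 40 would do so if numbers carried nothing. In each breed the highest correlation was between libraries of other numbers, epididymis and bulbourethral gland (0.369 in BMI and 0.45 in DSE). Each of these libraries had the lowest transcript integrity of its breed and gland in the study's own quality measures. The part of shared boars or of RNA quality in these correlations was not tested. Since the labels do not say that numbers are shared and most same-numbered correlations were not over 0.1, the numbers were not taken to pair the libraries.

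Without 1 library, calls ranged from 45 to 63 for epididymis (with 9.0% to 11.9% of all transcripts), 8 to 14 for vesicular gland (2.22% to 2.83%), 13 to 17 for prostate gland (2.31% to 3.18%) and 14 to 22 for bulbourethral gland (5.97% to 6.95%). Breed calls ranged from 0 to 9 in testis (with 0.00552% to 0.68% of all), 0 to 2 in prostate gland (0.0% to 1.45%) and 1 to 4 over all glands (0.597% to 0.709%; 1 without DSE testis replicate 1, 4 without replicate 3). The share of full-length reads was 0.295% with at least 2 reads in the library and 0.284% for isoforms canonical throughout and not marked for RTS. With at least 2 reads the polyA motif difference was 3.37 percentage points and did not pass. Among isoforms of 1 library alone the differences that did not pass were 8.32 (canonical), −2.36 (RTS), 3.42 (polyA motif), −8.08 (A-rich end) and 0.25 exons. Outside Ensembl genes, a setting chosen after seeing the data, the polyA motif difference was 3.38 and did not pass. The cause of these changes was not tested. No result changed direction. Read totals limit the isoforms with 2 reads, whose gland and breed rest on those reads.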
